A study of Mus musculus with 12 samples.

Results

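The small leucine-rich proteoglycans are secreted matrix proteins built on a curved stack of leucine-rich repeats, many of which carry sugar chains. Of the 16514 genes measured in these mouse hearts, 9 were taken as the family, by gene symbol: biglycan (Bgn), decorin (Dcn), lumican (Lum), fibromodulin (Fmod), osteoglycin (Ogn), Prelp, asporin (Aspn), osteomodulin (Omd) and podocan (Podn). All 9 were found and all 9 passed the filter on low values in each comparison. RNA was sequenced from hearts of male C57Bl/6J mice aged 12 weeks in 4 groups of 3 libraries each. The groups were BCAA-free TAC, BCAA-free sham, control TAC and control sham. TAC is transverse aortic constriction, a narrowing of the aorta that puts the left ventricle under pressure, and sham is the operation without it. BCAA are the branched-chain amino acids leucine, isoleucine and valine. They were removed from the BCAA-free diet, while the control diet held them at amounts like those of standard chow. Both diets contained 1% propionate, so no group was without it. Mice ate their diet from 4 days before surgery until the hearts were collected 1 week after surgery. No label states that each library is a mouse of its own. The p-values given here thus weigh differences against the scatter of 3 libraries, whose source, animal or technical, is not stated.

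Proteins of this family bind fibrillar collagens and help set how thick the fibrils grow and how far apart they lie. Some also hold growth factors such as TGF-beta in the matrix, and biglycan that is set free from the matrix can act on Toll-like receptors of immune cells. In the heart they are made mainly by fibroblasts, and scar formation under pressure load changes the amount of several of them. Biglycan and decorin carry chondroitin or dermatan sulfate chains, lumican, fibromodulin and osteomodulin can carry keratan sulfate, and asporin, with its run of aspartate residues, carries no such chain.

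The libraries held 29929161 to 46101244 reads assigned to genes, and family transcripts took 0.0676% to 0.131% of them. The 8 cardiomyocyte markers (Myh6, Ttn and others) summed to between 65715 and 88664 CPM (reads scaled to a common library total) in every library, so the defining transcripts of heart muscle were abundant throughout. Of the 12 libraries, 3 stood apart. Replicate 3 of control TAC held 6668 reads of Alb, the liver's serum albumin gene, against 0 to 3 reads in the other libraries whose tables list it. Replicate 2 of control TAC held 2056 reads of Rn7sk, a small nuclear RNA, and replicate 1 of BCAA-free sham held 664, against 41 to 187 in the other libraries. The counts of members, collagens and fibroblast, myofibroblast and macrophage markers are therefore also given without BCAA-free sham replicate 1 where that group was compared. Leaving out both control TAC libraries would keep 1 TAC library on the control diet, replicate 1. Counts after TAC on that diet are thus given with 1 library left out at a time. In whole tissue, a change in the number of cells that make a transcript and a change of its RNA per cell cannot be told apart.

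Levels of different genes were compared per length, as RPKM (reads scaled to exon length and, by TMM over the 12 libraries, to depth). Exon length was that of all annotated exons of a gene merged, and the order of genes by level depends on that choice. Averaged over all libraries, Dcn had 63.1 RPKM, Bgn 43.9, Ogn 25.3, Lum 22.6, Prelp 15.0, Aspn 10.4, Podn 6.11, Fmod 2.49 and Omd 0.425. Dcn, which binds collagen and TGF-beta, stood at the percentile 96.1 of the 15629 genes ranked and Bgn at 94.7, while Omd, a protein of mineralised tissue, stood at 17.2. The members differed in how far they moved. The highest library was 1.48 times the lowest for Dcn, closely followed by Ogn, 1.66 times for Prelp and 1.79 times for Podn. It was 2.81 times for Lum, 3.39 times for Omd, 3.88 times for Bgn, 4.17 times for Aspn and 6.95 times for Fmod.

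The order of the groups also differed between members. Bgn averaged 62.5 ± 24.1 RPKM in BCAA-free TAC, 25.1 ± 2.18 in BCAA-free sham, 57.0 ± 10.1 in control TAC and 31.1 ± 1.02 in control sham hearts (SD, n = 3 each). Lum, which spaces collagen fibrils, averaged 27.3 ± 7.27 RPKM in BCAA-free TAC, 14.8 ± 1.96 in BCAA-free sham, 28.0 ± 6.16 in control TAC and 20.3 ± 1.65 in control sham hearts. For both genes the TAC groups overlapped each other, every control sham library lay below them, and every BCAA-free sham library lay lower still. Aspn averaged 12.9 ± 6.39 RPKM in BCAA-free TAC, 5.96 ± 0.982 in BCAA-free sham, 14.0 ± 3.17 in control TAC and 8.82 ± 0.486 in control sham hearts, and BCAA-free sham was again the lowest group, free of overlap with the next. Dcn had another order, with 72.0 ± 2.38 RPKM in BCAA-free TAC, 62.2 ± 4.24 in BCAA-free sham, 55.0 ± 4.53 in control TAC and 63.2 ± 6.86 in control sham hearts, and BCAA-free TAC alone lay apart from its neighbour in that order. For Podn both TAC groups (6.95 ± 0.539 RPKM in BCAA-free TAC and 7.24 ± 0.862 in control TAC) lay above both sham groups (5.20 ± 0.637 in BCAA-free sham and 5.06 ± 0.414 in control sham). In Ogn, Prelp, Fmod and Omd each group overlapped its neighbour in the order of means. Replicate 1 of BCAA-free TAC held the highest level of 6 members (Bgn, Dcn, Lum, Fmod, Ogn and Aspn).

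**Figure D1:**
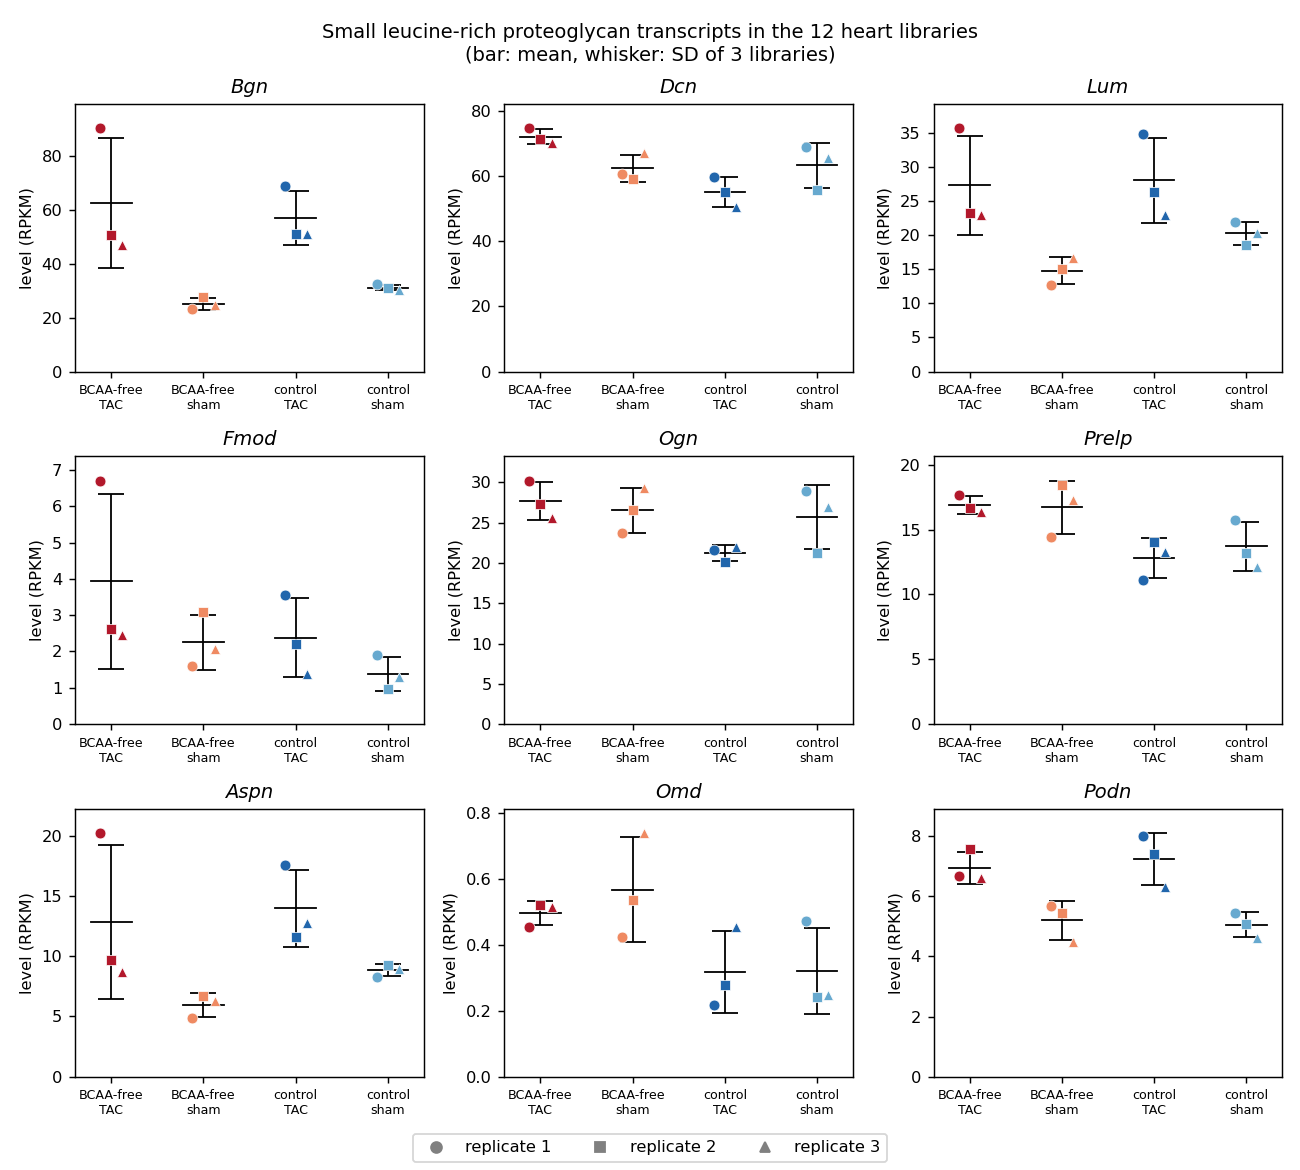
Level of each of the 9 transcripts (vertical axis, RPKM, starting at 0) in the 3 libraries of each group; horizontal bars are means and whiskers the SD of 3 libraries. Bgn, Lum, Aspn and Podn sit higher in TAC than in sham hearts of the same diet, Dcn and Ogn are highest in BCAA-free TAC, and replicate 1 (circle) is the highest TAC library for Bgn, Lum, Fmod and Aspn on both diets.

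In the mouse genome (GRCm38, GENCODE M21 annotation) most members lie in small clusters, and members with unlike patterns are neighbours. Aspn (chr13:49544443-49567565), Omd (chr13:49582462-49592822) and Ogn (chr13:49608046-49624501) follow each other at gaps of 14.9 kb and 15.2 kb. Dcn (chr10:97479609-97518143) and Lum (chr10:97565128-97572703) are 47.0 kb apart. Prelp (chr1:133910304-133921414) and Fmod (chr1:134037254-134048277) are 115.8 kb apart, and Bgn (chrX:73483602-73495933) and Podn (chr4:108014791-108096445) lie alone. The gene Cenpp runs across Aspn, Omd and Ogn on the opposite strand and shares 0.3% of the exon bases of Aspn and none of those of Omd and Ogn. An antisense gene, Gm15851, shares 9.7% of the exon bases of Prelp. Whether reads were counted by strand is not given in the sources used here, so reads of Prelp and of that antisense gene cannot be told apart where they overlap.

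Promoter sequences, the 250 bases before the annotated start, were available from RefSeq (GRCm38.p6) for 7 of the 9 members, without Dcn and Lum. They are shown for Bgn, Podn and Aspn, whose transcripts rose with TAC on the control diet, and for Ogn, which was higher on the BCAA-free diet after TAC. Capitals mark matches to the motifs searched on both strands, which were TATAAA (the TATA box), GGGCGG (a site of Sp1), TGANTCA (a site of AP-1), GGAATG (a site of TEAD factors), CAGAC (a site of Smad proteins) and the CArG box (a site of serum response factor). RefSeq lists 2 starts for Podn, and the first is shown.
Bgn (chrX:73483351-73483600, plus strand): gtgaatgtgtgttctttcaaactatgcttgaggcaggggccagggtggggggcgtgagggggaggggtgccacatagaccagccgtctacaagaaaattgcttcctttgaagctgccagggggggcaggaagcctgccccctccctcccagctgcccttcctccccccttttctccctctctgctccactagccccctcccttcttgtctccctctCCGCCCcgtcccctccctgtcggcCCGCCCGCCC
Podn (chr4:108031955-108032204, minus strand): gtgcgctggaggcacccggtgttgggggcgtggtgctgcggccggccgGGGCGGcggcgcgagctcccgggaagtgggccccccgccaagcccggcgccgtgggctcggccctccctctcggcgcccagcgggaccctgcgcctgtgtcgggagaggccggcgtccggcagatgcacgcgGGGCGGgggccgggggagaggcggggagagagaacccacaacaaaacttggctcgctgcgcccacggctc
Aspn (chr13:49544193-49544442, plus strand): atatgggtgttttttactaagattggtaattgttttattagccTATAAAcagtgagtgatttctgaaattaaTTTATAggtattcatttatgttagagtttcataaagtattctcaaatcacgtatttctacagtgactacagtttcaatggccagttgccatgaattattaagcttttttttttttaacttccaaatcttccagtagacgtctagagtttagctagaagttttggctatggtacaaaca
Ogn (chr13:49607765-49608014, plus strand): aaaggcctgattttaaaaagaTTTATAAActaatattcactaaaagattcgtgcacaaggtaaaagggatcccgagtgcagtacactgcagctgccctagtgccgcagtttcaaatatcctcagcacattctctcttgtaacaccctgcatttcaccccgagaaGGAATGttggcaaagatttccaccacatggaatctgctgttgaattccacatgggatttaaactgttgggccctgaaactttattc
The promoters of Bgn and Podn were rich in G and C (64.4% and 78.0%), and that of Aspn was poor in them (30.0%, with 42.0% in Ogn and a median of 52.0% over 27025 promoters). Matches to GGGCGG numbered 3 in Bgn, some of them overlapping, and 2 in Podn, and 32.9% of all promoters of this length held at least 1. Aspn and Ogn had 2 matches each to TATAAA, found in 13.0% of promoters, and in Ogn these overlapped. The matches began at positions -207 and -178 from the annotated start in Aspn and at -229 and -227 in Ogn. Whether they act as TATA boxes was not tested. Ogn had 1 match to GGAATG, found in 12.6% of promoters. Fmod had 2 matches and Prelp 1 match to CAGAC, found in 42.1% of promoters. None of the 7 windows held TGANTCA or the CArG box, which 6.9% and 1.4% of promoters held. No searched motif was found in all 3 windows of Bgn, Podn and Aspn.

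Biglycan, podocan and lumican transcripts rose after TAC on the BCAA-free diet, and biglycan, asporin and podocan rose on the control diet. None fell on either diet. Values here are normalised reads, which are reads scaled for the depth of each library within the table of that comparison, and changes are log2 differences of value + 4 with their standard error, tested with limma and with p-values adjusted over all genes by the method of Benjamini and Hochberg (threshold 0.05). On the BCAA-free diet 3 of 9 members rose, where 2.94% of 15936 genes rose and 1.37% fell. On the control diet 3 of 9 rose, where 3.40% of 15873 genes rose and 1.94% fell. The median change of the 9 was 0.41 on the BCAA-free and 0.45 on the control diet, against 0.00 over all genes on each.

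Bgn had 21075, 11651 and 10854 normalised reads in BCAA-free TAC hearts, against 5432, 6420 and 5747 in BCAA-free sham hearts. It had 14917, 11104 and 11110 in control TAC hearts, against 7011, 6684 and 6600 in control sham hearts. On both diets every TAC library lay above every sham library, and replicate 1 was the highest of its TAC group. The change was 1.24 ± 0.20 on the log2 scale (2.37-fold) on the BCAA-free diet (limma adjusted p = 0.0088) and 0.86 ± 0.11 (1.81-fold) on the control diet (adjusted p = 0.0051). Leaving out any 1 library kept the call on the control diet. On the BCAA-free diet the call ended without BCAA-free sham replicate 1 or 3 (limma adjusted p = 0.0612 and 0.0596).

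Podn, which slows the growth of smooth muscle cells in mice, had 1090, 1222 and 1073 normalised reads in BCAA-free TAC hearts, against 927, 890 and 733 in BCAA-free sham hearts. It had 1220, 1126 and 960 in control TAC hearts, against 830, 773 and 706 in control sham hearts. The groups did not overlap on either diet. The rise was 0.41 ± 0.10 on the BCAA-free diet (limma adjusted p = 0.0468) and 0.51 ± 0.10 on the control diet (adjusted p = 0.0257). These calls lay near the threshold. On the BCAA-free diet the call ended without BCAA-free TAC replicate 2 or any of the BCAA-free sham libraries (limma adjusted p from 0.0934 to 0.162) and under quantile normalization (0.0516), and on the control diet it ended without control TAC replicate 1 or 2 or any control sham library (0.0522 to 0.0802).

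Lum had 3343, 2153 and 2132 normalised reads in BCAA-free TAC hearts, against 1188, 1408 and 1555 in BCAA-free sham hearts. It had 3040, 2287 and 1996 in control TAC hearts, against 1908, 1617 and 1777 in control sham hearts. The groups did not overlap on either diet, and replicate 1 was again the highest TAC library. The rise was 0.85 ± 0.16 on the BCAA-free diet (limma adjusted p = 0.0174), a call that ended without any of the BCAA-free sham libraries (0.0579 to 0.0934). On the control diet the change was 0.45 ± 0.14 and did not pass (limma adjusted p = 0.0929), while the authors' deposited table gives an adjusted p of 0.0152 for it. It passed without control TAC replicate 3 (limma adjusted p = 0.0388). It did not pass when that fit was held to genes that pass the filter in all libraries.

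Aspn, which binds collagen and can hold back TGF-beta signalling, had 1822, 859 and 779 normalised reads in BCAA-free TAC hearts, against 437, 606 and 568 in BCAA-free sham hearts. It had 1475, 970 and 1071 in control TAC hearts, against 695, 773 and 753 in control sham hearts. The TAC libraries lay above the sham libraries on both diets, with replicate 1 far above the other TAC libraries of its group. On the control diet the rise was 0.64 ± 0.14 (limma adjusted p = 0.0325), a call that ended without any of the control sham libraries (0.0595 to 0.108). On the BCAA-free diet the change was larger in size, 1.00 ± 0.26, and did not pass (limma adjusted p = 0.0562), and it passed without BCAA-free TAC replicate 1, at a change of 0.62 (0.0158), or without replicate 3, at 1.23 (0.0171).

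The other 5 members did not pass the test after TAC on either diet. Dcn had 16683, 15726 and 15547 normalised reads in BCAA-free TAC hearts, against 13531, 13191 and 15014 in BCAA-free sham hearts. It had 12383, 11415 and 10491 in control TAC hearts, against 14306, 11542 and 13627 in control sham hearts. The BCAA-free groups did not overlap and the control groups did, with estimates of opposite sign, 0.20 ± 0.07 on the BCAA-free diet (limma adjusted p = 0.136) and -0.20 ± 0.09 on the control diet (adjusted p = 0.241). Ogn, a matrix protein also called mimecan, changed by 0.06 ± 0.09 on the BCAA-free and -0.26 ± 0.11 on the control diet (limma adjusted p = 0.769 and 0.184), and the control diet estimate passed, at -0.40, without control sham replicate 2 (adjusted p = 0.0308). Prelp, which links basement membranes to collagen, had estimates of 0.01 ± 0.09 and -0.10 ± 0.11 (adjusted p = 0.963 and 0.665). Fmod, which binds collagen and the cross-linking enzyme lysyl oxidase, had wide errors, with 0.68 ± 0.34 and 0.72 ± 0.33 (adjusted p = 0.283 and 0.231). Its BCAA-free TAC libraries held 849, 329 and 309 normalised reads, so that replicate 1 stood far above the others. Omd, at 17.4 to 63.6 normalised reads per library, had -0.16 ± 0.24 and -0.01 ± 0.35 (limma adjusted p = 0.761 and 0.99), so its errors were wide as well.

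**Figure D2:**
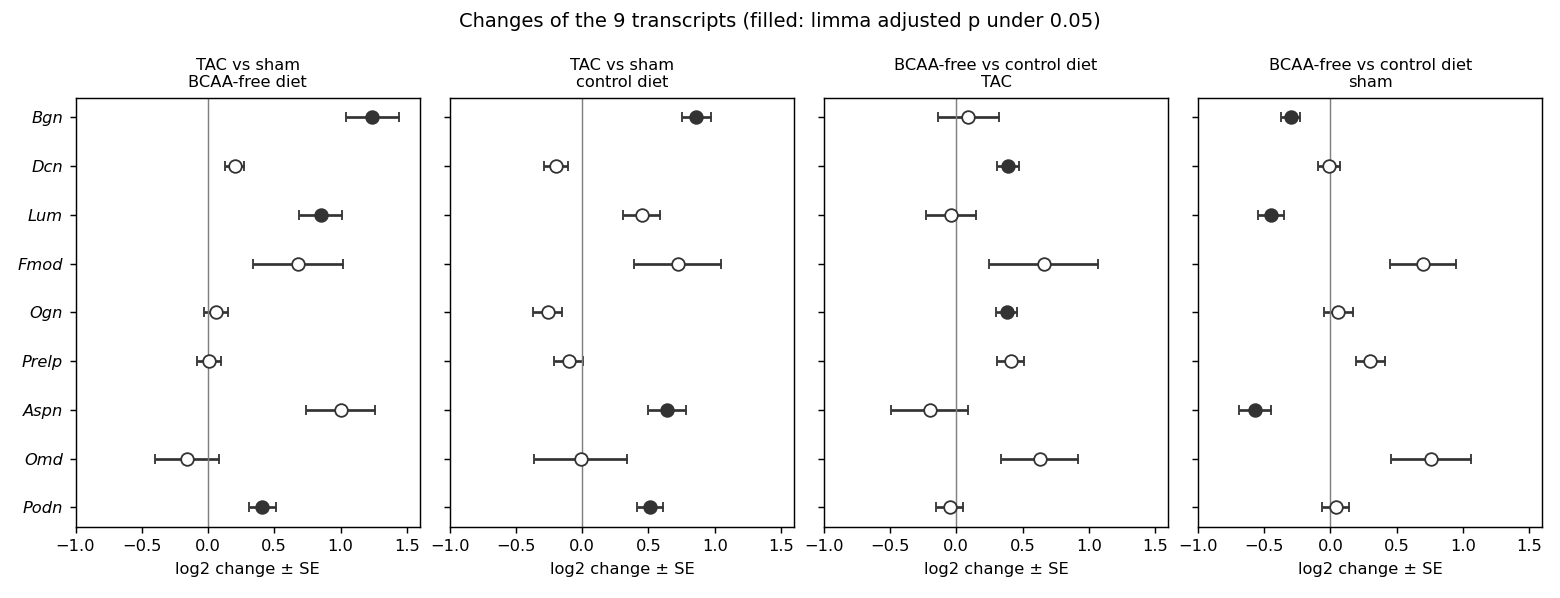
Log2 change of each transcript (horizontal axis) with its standard error, for TAC against sham on each diet and for the BCAA-free against the control diet in TAC and in sham hearts, from 3 libraries a group. Filled circles passed an adjusted p of 0.05. After TAC the filled circles lie right of 0 (Bgn, Podn, Lum on the BCAA-free and Bgn, Podn, Aspn on the control diet), in sham hearts those of the diet comparison lie left of 0 (Bgn, Lum, Aspn), and in TAC hearts right of 0 (Dcn, Ogn).

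Separation of the libraries was also counted. After TAC on the BCAA-free diet 5 of 9 (Bgn, Dcn, Lum, Aspn and Podn) had every TAC library above every sham library, where 14.0% of all genes did, and on the control diet 4 of 9 (Bgn, Lum, Aspn and Podn), where 14.5% did. Without control TAC replicates 2 and 3, which leaves 1 control TAC library that is assumed to vary like the control sham libraries, 5 members rose on the control diet (Bgn, Lum, Fmod, Aspn and Podn), where 3.41% of genes rose. When that fit was held to genes that pass the filter in all libraries, 2 rose, where 0.869% of genes did, and without replicate 3 alone under the same restriction 1 rose, where 0.410% did. Without BCAA-free sham replicate 1, 0 members passed with limma on the BCAA-free diet, where 0.554% of genes rose. Bgn then had a change of 1.19, Lum of 0.75 and Podn of 0.48.

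Summed myofibroblast markers were higher after TAC on both diets, free of overlap with sham. Sums of fibroblast and macrophage markers were so on the BCAA-free diet and overlapped with sham on the control diet. The 14 fibroblast markers summed to between 2340 and 3501 CPM in BCAA-free TAC hearts against 1865 to 1944 in BCAA-free sham hearts, and 8 rose and 0 fell. On the control diet they summed to between 2338 and 3283 CPM in TAC hearts against 2251 to 2382 in sham hearts, and 7 rose and 2 fell. The 9 myofibroblast markers (Postn, Tnc and others) summed to between 377 and 938 CPM in BCAA-free TAC hearts against 233 to 274 in BCAA-free sham hearts, and to between 362 and 789 in control TAC against 208 to 294 in control sham hearts, with 5 rising on each diet. The 9 macrophage markers summed to between 396 and 477 CPM in BCAA-free TAC hearts against 220 to 241 in BCAA-free sham hearts, where 8 rose. In control TAC hearts they summed to between 315 and 475 CPM against 301 to 320 in control sham hearts, where 1 rose. Valve and tendon markers, 6 of 7 tested and without Tnmd, summed to between 55.5 and 133 CPM in BCAA-free TAC hearts against 32.1 to 43.0 in BCAA-free sham hearts, and to between 38.1 and 83.4 in control TAC against 21.5 to 28.2 in control sham hearts; 1 of them, Thbs4, rose on each diet. In BCAA-free TAC replicate 1 and control TAC replicate 1, the libraries with the most Bgn, Lum and Aspn, the fibroblast, myofibroblast and valve and tendon sums were the highest of all libraries of their diet. With 1 library left out, 3 to 8 fibroblast, 3 to 7 myofibroblast and 5 to 9 macrophage markers rose on the BCAA-free diet, the counts being 3, 4 and 5 without BCAA-free sham replicate 1. On the control diet 2 to 6 fibroblast, 2 to 6 myofibroblast and 0 to 3 macrophage markers rose with 1 library left out. The part of these cell types in the rises was not tested. Of the other marker lists, 2 of 6 smooth muscle markers rose after TAC on each diet and 1 fell on the control diet, 1 of 6 pericyte markers fell on the BCAA-free and 2 on the control diet, and 2 of 7 endothelial markers fell on the BCAA-free and 1 on the control diet. Acan was the 1 marker of cartilage and bone tested, of 7, and it rose on both diets, and 0 epicardial and 0 liver markers passed. The Acan call ended on the BCAA-free diet without BCAA-free sham replicate 1 or 3 (limma adjusted p = 0.0707 and 0.0654). On the control diet it ended when control TAC replicate 1 or 2 or any of the sham libraries was left out (0.0571 to 0.112) and under quantile normalization (0.0503).

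On the BCAA-free diet without pressure load, biglycan, lumican and asporin transcripts were lower than on the control diet. In sham hearts 3 of 9 members fell and 0 rose, where 1.76% of 15596 genes fell and 1.05% rose. The median change of the 9 was 0.04, against 0.00 over all genes. The same 3 members had every BCAA-free sham library below every control sham library, where 11.8% of genes did.

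Aspn had 392, 541 and 507 normalised reads in BCAA-free sham hearts, against 663, 740 and 718 in control sham hearts, a change of -0.57 ± 0.12 (limma adjusted p = 0.0291). Lum had 1064, 1259 and 1386 in BCAA-free sham hearts, against 1820, 1547 and 1694 in control sham hearts, a change of -0.45 ± 0.10 (limma adjusted p = 0.0341). Bgn had 4867, 5740 and 5124 in BCAA-free sham hearts, against 6688, 6395 and 6295 in control sham hearts, a change of -0.30 ± 0.07 (limma adjusted p = 0.0369). In each of them the groups were separate, and BCAA-free sham replicate 1 was the lowest library. Each call ended when 1 of several libraries was left out. Over all genes, 438 passed with all libraries and 68 to 1020 with 1 left out. The Aspn call ended without any BCAA-free sham library or without control sham replicate 2 (limma adjusted p from 0.0572 to 0.0954), the Lum call without any BCAA-free sham library or without control sham replicate 1 (0.0518 to 0.133), and the Bgn call without BCAA-free sham replicate 1 or 3 or control sham replicate 1 or 2 (0.0627 to 0.156). Without BCAA-free sham replicate 1, the library high in Rn7sk, 0 members passed with limma, where 0.425% of genes fell. The changes were then -0.43 for Aspn, -0.35 for Lum and -0.25 for Bgn.

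The remaining 6 members gave no call between the diets in sham hearts. Fmod had 182, 348 and 234 normalised reads in BCAA-free sham hearts, against 212, 109 and 146 in control sham hearts, an estimate of 0.70 ± 0.25 (limma adjusted p = 0.169), and Omd had 0.76 ± 0.30 (adjusted p = 0.207). Both had overlapping groups. Prelp had 0.30 ± 0.11 (adjusted p = 0.162), Ogn 0.06 ± 0.11 (0.827), Podn 0.04 ± 0.10 (0.871) and Dcn -0.01 ± 0.08 (0.966).

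The fibroblast markers were lower with the diet as well, summing to between 1865 and 1944 CPM in BCAA-free sham against 2251 to 2382 in control sham hearts, and 9 of 14 fell and 0 rose. Macrophage markers summed to between 220 and 241 CPM in BCAA-free sham against 301 to 320 in control sham hearts, and 4 of 9 fell. Adipocyte markers, 5 of 6 tested, summed to between 14.2 and 26.8 CPM in BCAA-free sham against 8.17 to 9.05 in control sham hearts, and 3 rose. Scx, a tendon marker, rose by 0.67 ± 0.14 (limma adjusted p = 0.0284), a call that ended without any of the BCAA-free sham libraries (0.0954 to 0.139). Myh11, a smooth muscle marker, rose by 0.71 ± 0.09 (limma adjusted p = 0.00396), a call that held with any 1 library left out. Ryr2, a cardiomyocyte marker, fell (-0.30 ± 0.07, limma adjusted p = 0.0386), a call that ended without any BCAA-free sham library or control sham replicate 1 (0.116 to 0.163). Without BCAA-free sham replicate 1, 6 fibroblast and 3 macrophage markers fell and 0 adipocyte markers rose. The part of these cell types in the lower levels was not tested.

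After TAC, decorin and osteoglycin transcripts were higher on the BCAA-free than on the control diet. Of the 9 members 2 rose and 0 fell, where 1.27% of 16222 genes rose and 2.11% fell, and the median change of the 9 was 0.38, against 0.00 over all genes. Dcn had 17398, 16583 and 16337 normalised reads in BCAA-free TAC hearts, against 13771, 12815 and 11750 in control TAC hearts, a change of 0.39 ± 0.08 (1.31-fold, limma adjusted p = 0.0289). Ogn had 3098, 2802 and 2624 in BCAA-free TAC hearts, against 2201, 2068 and 2252 in control TAC hearts, a change of 0.38 ± 0.08 (1.30-fold, limma adjusted p = 0.0364). Prelp had 2552, 2397 and 2359 in BCAA-free TAC hearts, against 1588, 2027 and 1915 in control TAC hearts, a change of 0.41 ± 0.10 that did not pass (limma adjusted p = 0.0576), while the authors' deposited table gives 0.00752. These 3 members had every BCAA-free TAC library above every control TAC library, where 12.6% of genes did.

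Those calls also ended when 1 of several libraries was left out. Over all genes, 548 passed with all libraries and 138 to 1044 with 1 left out. The Dcn call ended without BCAA-free TAC replicate 2 or 3 or control TAC replicate 2 or 3 (limma adjusted p from 0.0734 to 0.132) and under quantile normalization, at a change of 0.29 (0.0961). The Ogn call ended without BCAA-free TAC replicate 2 or any control TAC library (0.0801 to 0.163). Without control TAC replicates 2 and 3, none of the 9 members passed (limma adjusted p = 0.413 for Dcn and 0.351 for Ogn), and neither did any gene of all those tested, while 4 members and 1889 genes had an unadjusted p under 0.05.

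The members that TAC raised did not separate the diets in TAC hearts. Bgn had 21978, 12286 and 11405 normalised reads in BCAA-free TAC hearts, against 16588, 12466 and 12444 in control TAC hearts, an estimate of 0.09 ± 0.23 (limma adjusted p = 0.874). Lum had -0.04 ± 0.19 (adjusted p = 0.929), Aspn -0.20 ± 0.29 (0.744) and Podn -0.05 ± 0.10 (0.822). All 4 overlapped between the diets, and replicate 1 of each TAC group widened the spread of Bgn, Lum and Aspn. Fmod had 0.66 ± 0.41 (adjusted p = 0.416) and Omd 0.63 ± 0.29 (0.267), with overlapping groups. In these hearts 0 of 14 fibroblast, 0 of 9 myofibroblast, 0 of 9 macrophage and 0 of 5 adipocyte markers passed, and 1 of 7 endothelial markers, Pecam1, fell (-0.34 ± 0.08, limma adjusted p = 0.048), a call that ended without any 1 of the 6 libraries (0.0511 to 0.186) and with edgeR (0.0564). Adipocyte markers summed to between 14.8 and 71.2 CPM in BCAA-free TAC hearts, with the highest in replicate 2, against 6.87 to 23.4 in control TAC hearts, and their part in the Dcn and Ogn values was not tested.

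Whether the diet altered the response to TAC was tested as the difference of the TAC changes, BCAA-free minus control. With limma 0 of 9 members passed, as with edgeR and DESeq2, and Dcn had the smallest unadjusted p among them (limma, 0.00498). Of all 15524 genes 0.0451% passed. The difference was 0.40 ± 0.12 for Dcn (limma adjusted p = 0.278), 0.41 ± 0.24 for Lum (0.615), 0.39 ± 0.27 for Bgn (0.682), 0.36 ± 0.35 for Aspn (0.799) and 0.32 ± 0.15 for Ogn (0.511). It was 0.11 ± 0.16 for Prelp, -0.04 ± 0.56 for Fmod, -0.10 ± 0.15 for Podn and -0.15 ± 0.43 for Omd (limma adjusted p from 0.879 to 0.987). Thus Lum, which passed after TAC on the BCAA-free diet alone, and Aspn, which passed on the control diet alone, are not shown to respond differently between diets.

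The make-up of the family pool differed between TAC and sham hearts. Bgn made up 26.5 ± 4.74% of the summed RPKM of the 9 genes in BCAA-free TAC against 15.8 ± 1.17% in BCAA-free sham hearts, and 28.7 ± 1.67% in control TAC against 18.4 ± 1.28% in control sham hearts (SD, n = 3 each). Dcn made up 31.8 ± 4.71% in BCAA-free TAC against 39.1 ± 2.46% in BCAA-free sham hearts, and 27.9 ± 1.39% in control TAC against 37.2 ± 1.27% in control sham hearts. The ratio of Bgn to Dcn was 1.21, 0.709 and 0.668 in BCAA-free TAC hearts, against 0.384, 0.466 and 0.366 in BCAA-free sham hearts. It was 1.15, 0.931 and 1.01 in control TAC hearts, against 0.469, 0.554 and 0.464 in control sham hearts. The TAC and sham ratios did not overlap on either diet, and Bgn exceeded Dcn in BCAA-free TAC replicate 1 and in control TAC replicates 1 and 3 alone. Which of these genes exceeds the other depends on the merged exon lengths used, 6099 bases for Bgn and 5838 for Dcn. Since these shares restate the Bgn values above, no separate test was made. The summed level was 283, 209 and 200 RPKM in BCAA-free TAC hearts, against 147, 162 and 168 in BCAA-free sham hearts, and 225, 188 and 181 in control TAC hearts, against 184, 155 and 170 in control sham hearts, so that the sums did not overlap on the BCAA-free diet and did on the control diet.

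**Figure D3:**
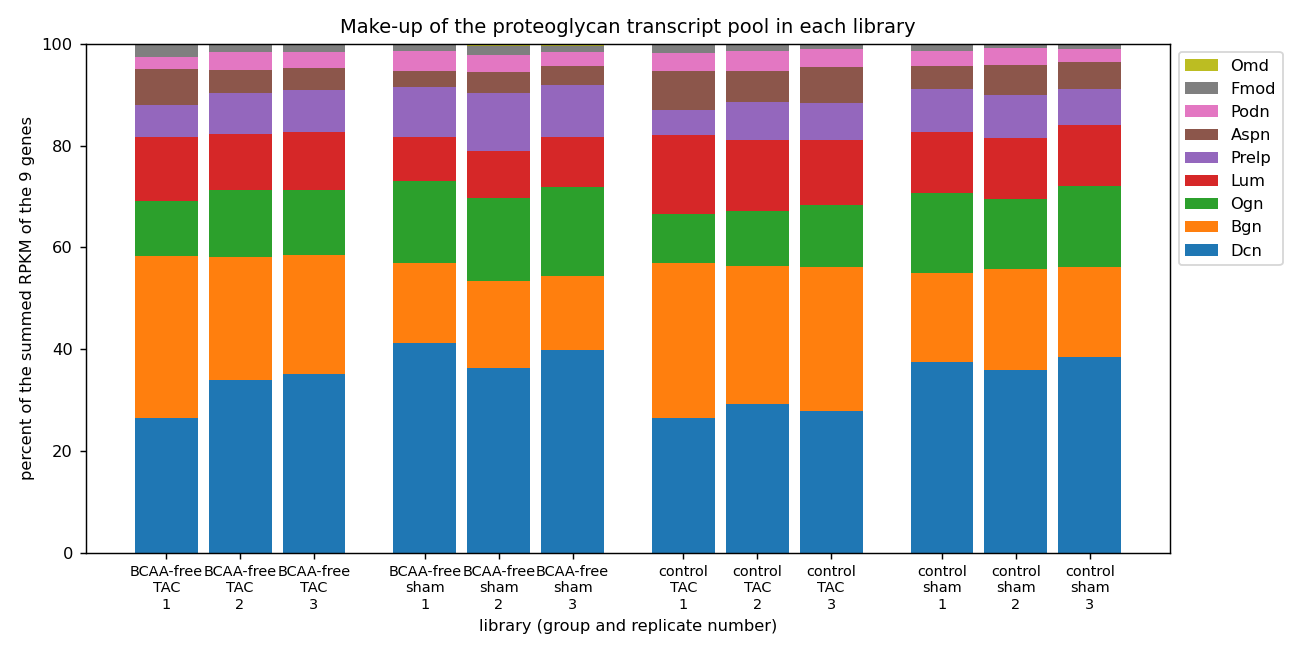
Percent of the summed RPKM of the 9 genes (vertical axis, 0 to 100) taken by each gene in each of the 12 libraries (horizontal axis). Bgn takes 23.4% to 31.9% in BCAA-free TAC and 27.2% to 30.5% in control TAC libraries, against 14.6% to 16.9% in BCAA-free sham and 17.6% to 19.9% in control sham libraries.

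The genes that these proteoglycans work with were read from lists chosen beside the members. Of the collagens that the family binds, 10 were tested in 3 of the comparisons and 11 between the diets in TAC hearts. After TAC all 10 rose on the BCAA-free diet (median change 1.40) and 9 rose on the control diet (median 1.15). In sham hearts 8 of 10 fell on the BCAA-free diet (median -0.61), and in TAC hearts 0 of 11 passed between the diets (median -0.28, with 0.00 over all genes in each comparison). Col3a1, a fibrillar collagen, rose by 2.25 ± 0.28 after TAC on the BCAA-free diet (limma adjusted p = 0.00313) and by 1.65 ± 0.29 on the control diet (0.0158), and it fell by 1.05 ± 0.10 with the diet in sham hearts (0.00132); of these the control diet call ended without control sham replicate 1 (0.058). Leaving out 1 library gave 1 to 10 collagens that rose on the BCAA-free and 0 to 9 on the control diet, and 6 to 8 that fell in sham hearts. Without BCAA-free sham replicate 1 the counts were 1 on the BCAA-free diet and 6 in sham hearts. The collagen list shares 3 genes with the fibroblast markers, so these lists are not separate measurements. Other lists share genes too. Acan is a cartilage marker and also counted among other proteoglycans, and Pcolce is a fibroblast marker and also counted among proteases and helpers. Kdr is an endothelial marker and also counted among receptors of free biglycan and decorin. Comp, Acta2, Chad and Col2a1 are shared between lists as well.

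Some other proteoglycans passed the test. Over all genes, 2.94% rose after TAC on the BCAA-free diet. On the control diet 3.40% rose and 1.94% fell. With the diet 1.76% fell in sham hearts, and in TAC hearts 1.27% rose and 2.11% fell. Of 6 or 7 further genes of the leucine-rich class tested, Ecm2, a fibroblast matrix protein, fell after TAC on the control diet (-0.64 ± 0.08, limma adjusted p = 0.00465) and was higher on the BCAA-free diet in TAC hearts (0.41 ± 0.09, limma adjusted p = 0.0385). The TAC call held without any 1 library, and the diet call ended without any 1 of the 6 libraries (0.0571 to 0.139). No gene of that list passed in the other comparisons (Chad had the smallest p in sham hearts, 1.55 ± 0.39, limma adjusted p = 0.0587). Of 19 proteoglycans outside that class, among them syndecans and glypicans, 3 rose after TAC on the BCAA-free and 1 on the control diet, and 2 fell with the diet in sham and 3 in TAC hearts. Among them Vcan, the versican gene, rose by 1.06 ± 0.15 after TAC on the BCAA-free diet (limma adjusted p = 0.00493) and fell by 0.98 ± 0.18 with the diet in sham hearts (0.0191), a call that ended without any of the BCAA-free sham libraries (0.0549 to 0.102).

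Genes for building the sugar chains were counted beside the same shares of all genes, 2.94% rising after TAC on the BCAA-free and 3.40% on the control diet. Of 22 genes of chondroitin and dermatan sulfate synthesis, 1 rose after TAC on each diet, Chpf, a subunit that lengthens the chains (0.55 ± 0.12 on the BCAA-free diet, limma adjusted p = 0.0328, and 0.58 ± 0.11 on the control diet, 0.0188). The Chpf call ended on the BCAA-free diet without BCAA-free TAC replicate 2 or any BCAA-free sham library (0.068 to 0.141) and on the control diet without control sham replicate 1 or 3 (0.0623 and 0.0639). None of the 22 passed between the diets, and none of 5 genes of keratan sulfate synthesis passed in any comparison. Of 10 genes for proteases and helpers that process or cleave the family, 2 rose and 1 fell after TAC on the BCAA-free diet, 1 rose on the control diet and 2 fell with the diet in sham hearts, and 1 of 11 fell in TAC hearts. Pcolce, an enhancer of procollagen processing, rose on both diets after TAC (0.85 ± 0.15 on the BCAA-free diet, limma adjusted p = 0.0145, and 0.57 ± 0.11 on the control diet, 0.0207). The first of these calls ended without any of the BCAA-free sham libraries (0.0705 to 0.0817) and the second without control sham replicate 1 or 3 (0.0737 and 0.0597).

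Some ligands and receptors of the family passed. After TAC 2.94% of all genes rose and 1.37% fell on the BCAA-free diet, and 3.40% rose on the control diet. Of 8 growth factors that members bind, 1 rose after TAC on the BCAA-free diet, Ctgf (0.84 ± 0.18, limma adjusted p = 0.0304, lost without BCAA-free TAC replicate 2 or any BCAA-free sham library, 0.0752 to 0.129), and 1 on the control diet, Tgfb3 (0.61 ± 0.14, limma adjusted p = 0.0348, lost without control TAC replicate 1 or 2 or control sham replicate 1 or 3, 0.0581 to 0.114). Of the receptors of free biglycan and decorin, 2 of 14 rose and 1 fell after TAC on the BCAA-free diet. Cd14, a co-receptor of Toll-like receptors, rose by 0.74 ± 0.14 (limma adjusted p = 0.0174), a call lost without any BCAA-free sham library (0.0649 to 0.091). Neither list had a call between the diets, in sham or TAC hearts.

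**Figure D4:**
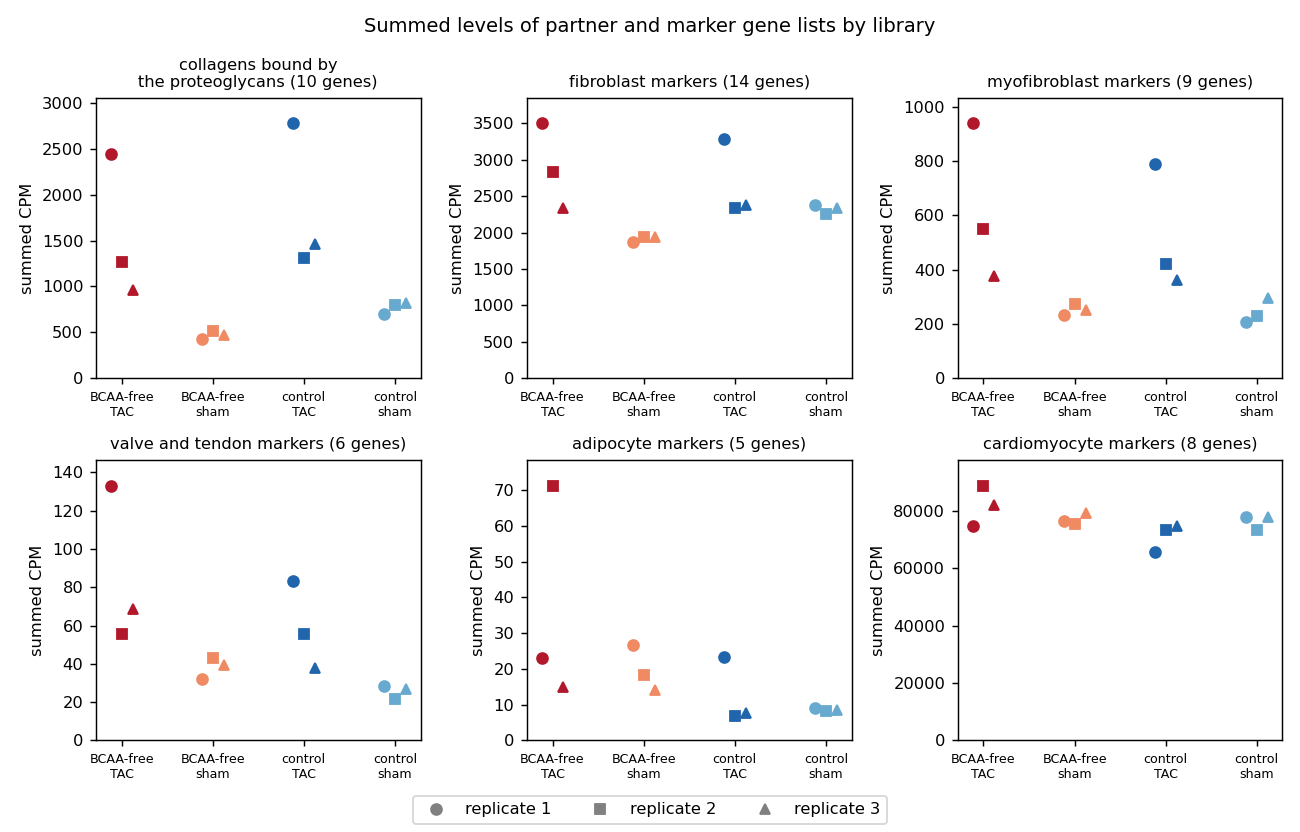
Summed CPM (vertical axes, starting at 0) of partner collagens and of cell type marker lists in the 3 libraries of each group. The collagen sum is 2445, 1270 and 959 CPM in BCAA-free TAC replicates 1, 2 and 3, against 430 to 515 CPM in BCAA-free sham libraries. It is 2777, 1312 and 1459 CPM in control TAC replicates 1, 2 and 3, against 700 to 816 CPM in control sham libraries. Replicate 1 is the circle. The cardiomyocyte sum stays between 65715 and 88664 CPM.

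Across the 12 libraries the members fell into sets that rose and fell together. These correlations are of log2(CPM + 1) over 12 libraries that share 4 groups, so they describe group differences and spread within groups at once. Of the 36 pairs of members, Lum and Aspn had the highest Pearson correlation (0.95), followed by Bgn with Lum and Bgn with Aspn (0.94 each). Dcn and Ogn reached 0.84, as did Prelp and Omd, and Bgn and Podn reached 0.80. Genomic neighbours were not the closest pairs. Dcn and Lum had 0.19, Prelp and Fmod 0.44, Ogn and Omd 0.65, and Aspn and Omd -0.41, the lowest of all pairs.

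Among 15639 genes that are no member, the gene closest to Bgn was Col8a1, a short-chain collagen (Pearson correlation 0.989). Closest to Aspn was Mrc2, a receptor that takes up collagen (0.985), and to Lum it was Cd300c2 (0.984). Closest to Podn was Slc25a10 (0.95), to Prelp Smyd3 (0.945), to Fmod Gabra3 (0.924), to Ogn Maip1 (0.915), to Omd Gtf2h4 (0.907) and to Dcn the predicted gene Gm11716 (0.897). The mean of the standardised levels of all 9 was closest to Gabra3 (0.969), Mr1 (0.94), Tbca (0.907), Eid1 (0.905), Col22a1 (0.902) and Pdgfrl (0.897). All these genes were picked as the highest of 15639 over 12 libraries, a choice that favours high values. How high such values run for other genes was not tested.

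Of the 11 calls on members, the rise of Bgn after TAC on the control diet was the one that held with any 1 library left out. The number of members that passed without 1 library lay between 0 and 4 after TAC on the BCAA-free diet, where 106 to 1199 genes passed. On the control diet it lay between 1 and 4, where 300 to 659 genes passed. Between the diets it lay between 0 and 3 in sham hearts, where 68 to 1020 genes passed. In TAC hearts it lay between 0 and 2, where 138 to 1044 genes passed. In every one of these fits the sign of each of the 11 changes was the same as with all libraries.

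**Figure D5:**
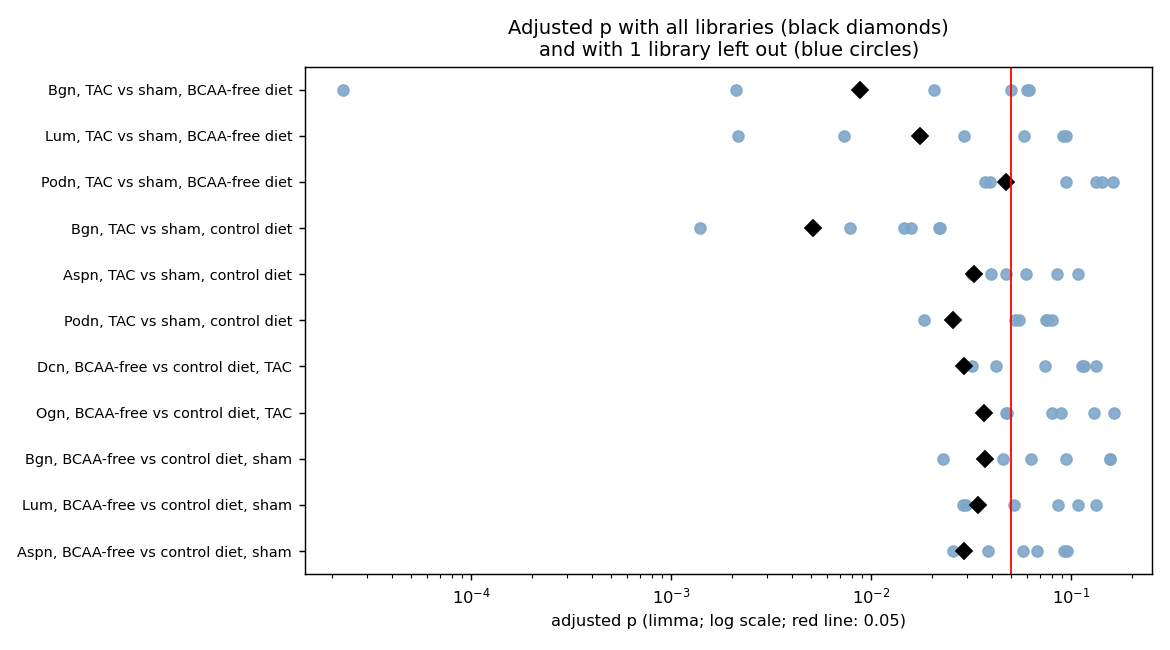
Adjusted p (limma, horizontal log axis) of the 11 calls on members with all libraries (black diamonds) and with each of the 6 libraries of the comparison left out in turn (blue circles). The red line marks 0.05; all circles of Bgn after TAC on the control diet lie left of it, and each other call has 2 to 5 circles right of it.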

How the data were processed

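Polyadenylated RNA of whole hearts was sequenced, per the labels' protocols. Per the submitters' processing notes the tools were STAR 2.5.2b, Trimmomatic 0.36, DESeq2 and Subread 1.5.2, with the build GRCm38 (mm10), with settings not given in the sources used here. There were 4 deposited tables, and in each of them the groups compared share either the diet or the surgery. The deposited library columns hold a signal, in which the authors scaled each gene's reads by a size factor that a library has anew in each table, as the values show. The authors' log2 fold change and p-value, raw and adjusted, follow per the file headers.

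Dividing each deposited column by the value of 1 read gave whole reads for 100% of values (tolerance 0.001), and the same reads for all 187617 gene and library pairs found in more than 1 table. Reads carry no molecular identifiers, and a gene with few reads, such as Omd, is measured less precisely. Each pair of groups was tested in its own table with limma 3.58.1 (intensity trend, R 4.3.3) on log2(value + 4) where a gene's mean reached 10, and changes of low genes are understated on that scale. Counts were fitted with edgeR 4.0.16 and DESeq2 1.42.0 as alternatives. The difference of TAC responses used the 12 columns of both TAC tables. RPKM used recovered reads, TMM scaling and merged exon length from GENCODE M21, in which 16475 of 16514 identifiers were found.

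The members, the gene lists and the tests were chosen with earlier results of these data known. All 9 members are named in every comparison. From the other lists at most 2 genes a comparison are named, by smallest p among those that passed (the 1 smallest where none did), as are the genes whose log2(CPM + 1) correlated best with a member or with the mean of all members. Marker lists that are not described gene by gene are given as counts.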

Additional observations from a re-analysis of the deposited data

How the results depend on the processing

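Of 760 refits of single members, 658 kept direction and side of the threshold, 48 lost and 11 gained a call, and 43 changed sign, all for changes that had not passed. DESeq2 called more genes in all (1145 after TAC on the BCAA-free and 1539 on the control diet, 812 between diets in sham and 1188 in TAC hearts, 108 for the difference of responses). Correlations of same-numbered libraries ran from -0.088 to 0.221, the highest for replicate 1 of the TAC groups, and exceeded 0.1 for 2 of 12 pairs. Those of unlike numbers ran from -0.174 to 0.096. These values do not settle whether the replicate numbers pair the libraries. A replicate block gave 713 genes in sham and 1275 in TAC hearts between diets, against 438 and 548 without it, and 3 for the difference. It gave 4 members between diets in TAC hearts, against 2 without it. After TAC it gave 3 members on the BCAA-free diet (525 genes, against 688 without it) and 4 on the control diet (805 genes, against 848). Quantile normalization left 1 member between diets in TAC hearts, where 507 genes passed, against 548 without it. For the difference of responses 4 genes passed with pseudocount 1, a filter at a mean of 50 or quantile normalization. A fit without control TAC replicate 3, with genes that pass in all libraries, was added after seeing the data. Those are the genes that passed the filter before that library was left out. This fit gave 91 genes and 1 member after TAC on the control diet, 100 genes and 0 members between diets in TAC hearts, and 2 genes for the difference. Leaving out control TAC replicates 2 and 3 gave 840 genes and 5 members after TAC on the control diet, 0 members and 0 genes between diets, and 1 gene for the difference; with genes that pass in all libraries it gave 180 genes after TAC on the control diet, and again 0 members, 0 genes and 1 gene. Leaving out 1 library gave 106 to 1199 genes and 0 to 4 members after TAC on the BCAA-free diet, 300 to 659 genes and 1 to 4 members on the control diet, 68 to 1020 genes and 0 to 3 members between diets in sham hearts, 138 to 1044 genes and 0 to 2 members in TAC hearts, and 2 to 15 genes for the difference. Fewer libraries remain in each fit that leaves out a library, and the cause of the shifts in either direction was not tested.

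Signs changed as follows. Between diets in TAC hearts Bgn was -0.01 under quantile normalization and -0.19 without control TAC replicates 2 and 3, where Fmod was -0.01. For the difference of responses Fmod was 0.01 with DESeq2 and 0.00 with edgeR, and Omd was 0.11 without control TAC replicate 3 with genes that pass in all libraries and 0.26 without replicates 2 and 3. With 1 library left out, the change after TAC ran on the BCAA-free diet from -0.02 to 0.13 for Ogn, -0.09 to 0.08 for Prelp and -0.33 to 0.04 for Omd, and on the control diet from -0.18 to 0.01 for Prelp and -0.27 to 0.26 for Omd. Between diets it ran in sham hearts from -0.10 to 0.05 for Dcn, -0.07 to 0.15 for Ogn, -0.02 to 0.15 for Podn and -0.13 to 0.07 for Ecm2, and in TAC hearts from -0.21 to 0.26 for Bgn, -0.25 to 0.12 for Lum, -0.58 to 0.02 for Aspn and -0.15 to 0.02 for Podn. The difference of responses ran from -0.51 to 0.30 for Fmod, -0.02 to 0.59 for Aspn, -0.42 to 0.11 for Omd and -0.71 to 0.13 for Chad.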
